A study of Sus scrofa with 30 samples.

Results

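Peak lactation (PL) was compared with early lactation (EL) in whole mammary tissue of sows, over 6 of the 30 RNA-seq samples of the series. PL 2, PL 3 and PL 6 were taken on postpartum day 10, and EL 3, EL 4 and EL 6 on postpartum day 2. All sows were multiparous half-sibs of a Danish Landrace and Yorkshire cross with no recorded treatment, and the sample was frozen parenchyma from beneath the third teat pair on the left. The gland was not sorted into cells, so epithelium, stroma, fat and blood cells were measured together. The series holds 6 samples at each of 5 stages, and the other stages were mid gestation (MG), late gestation (LG) and the days after weaning (W2). Groups followed the sample titles. In the sample records the stage entry of the EL-titled samples reads mid gestation, and that of the MG-titled samples reads early lactation. Over the counted samples WAP averaged 21.0 units in the MG-titled and 433 units in the EL-titled samples. CSN2 averaged 9818 and 46799 units.

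Only 3 of the 6 samples of each stage were counted. EL 1, EL 2 and EL 5 differed from each other by at most 1.83% (median over transcripts), and PL 1, PL 4 and PL 5 by at most 1.85%, while the counted pairs differed by 22.7 to 33.3% in EL and 23.0 to 59.8% in PL. Averaged, these 3 matched the average of their stage's remaining 3 samples to 0.707% in EL and 0.741% in PL. They were therefore left out of n.

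Colostrum is secreted around farrowing, and the sow's gland then increases its milk output over the first weeks of suckling. The secretory cells are luminal alveolar cells that respond to prolactin through STAT5 and export caseins, whey proteins, lactose and fat. Myoepithelial cells around each alveolus contract under oxytocin to eject milk, and the epithelium also places antibacterial and acute-phase proteins into milk. Growth of the gland continues into lactation in pigs.

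Each sample carried between 998136 and 998888 units over 61773 transcripts, so a value is a share of a nearly fixed total, in the units of the table. Values are given for the sum over a gene's reference transcripts unless a transcript is named. PL 2 stood apart. It had 34065 transcripts above 0, against 39524 to 43794 in the other 5 samples, and its 20 most abundant transcripts held 59.9% of all units, against 33.4 to 43.0%. Scaling each sample by the median ratio of abundant transcripts gave a factor of 0.567 for PL 2 and 0.840 to 1.03 for the others. Since an increase in a few very abundant transcripts lowers every other share, each comparison was made on the deposited values and again after this scaling. The median log2 difference of all gene sums, PL minus EL, was -0.25 as deposited and 0.01 after scaling. EPCAM, a surface marker of epithelium, was at 555, 754 and 583 units in EL and 531, 607 and 633 units in PL. In tissue samples like these, fewer cells of a type and less RNA per cell cannot be told apart.

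A gene or transcript was called when limma gave an adjusted p under 0.05 with an absolute log2 difference of at least 2. Of 61773 transcripts, 86 (0.139%) were called higher and 166 (0.269%) lower in PL as deposited. After scaling, 159 (0.257%) were higher and 153 (0.248%) lower, so that the lower share of all calls went from 65.9% to 49.0%. Of 14915 gene sums, 63 (0.422%) were called higher and 100 (0.67%) lower as deposited, and 107 (0.717%) and 74 (0.496%) after scaling, with a lower share of 61.4% and 40.9%. Both scalings called 63 gene sums higher and 72 lower. The fit took its spread from the counted samples of all 5 stages. When PL and EL were fitted alone, limma called 1 gene sum higher and 10 lower as deposited, and 4 and 11 after scaling. Leaving out PL 2 raised the count of gene sums called higher from 63 to 174, of which 61 were among the 63. Leaving out PL 3 raised the count called lower from 100 to 207, of which 89 were among the 100.

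Among the 63 genes called higher in both scalings, PL had the highest mean of the 5 stages for 61, and EL had the lowest for 26. Among the 72 called lower in both, PL had the lowest mean for 70, while the highest stood in W2 for 28 and in MG for 25. These genes were chosen by their PL and EL values, so the place of PL among the stages was largely fixed by that choice. The means were of deposited values, where scaling factors were 0.567 to 0.841 in PL and 1.12 to 1.28 in MG and W2. No share over all gene sums stands beside these stage counts. Every PL sample lay above every EL sample for 443 gene sums (2.97%) as deposited and 1589 (10.7%) after scaling, and below for 2933 (19.7%) and 1601 (10.7%). At an adjusted p under 0.05 and any fold, 154 gene sums (1.03%) were higher and 933 (6.26%) lower as deposited, and 598 (4.01%) and 621 (4.16%) after scaling.

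Milk protein genes were abundant at both stages, and of the 4 caseins and 3 whey protein genes only WAP passed the test. WAP, the whey acidic protein gene on chromosome 18 from 50359599 to 50361906 (Sscrofa11.1), was at 44.5, 633 and 621 units in EL 3, EL 4 and EL 6 and at 12052, 8104 and 5910 units in PL 2, PL 3 and PL 6. The stages did not overlap, and EL 3 was far below the other EL samples. WAP was higher in PL by 5.00 ± 1.32 on the log2 scale (SE, adjusted p = 0.0387), and by 5.34 after scaling. The call ended without EL 3, EL 6, PL 2, PL 3 or PL 6, one at a time, with the difference between 3.73 (without EL 3) and 5.64 (without EL 4) and the adjusted p reaching 0.170. Mean WAP in the other stages was 21.0 units in MG, 65.1 units in LG and 2.86 units in W2, beside 433 and 8689 units in EL and PL.

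The other milk proteins did not pass the test, and their samples overlapped in most cases. CSN1S2, an alpha-S2 casein gene, was at 1442, 29843 and 13852 units in EL and 84151, 47887 and 32080 units in PL. The PL samples lay above the EL samples, with a log2 difference of 2.59 ± 1.49 (adjusted p = 0.329). CSN3, which encodes the kappa-casein that stabilises casein micelles, was at 9885, 26420 and 18886 units in EL and 51705, 27037 and 28090 units in PL. Its stages also did not overlap, with a log2 difference of 1.00 ± 0.44 (adjusted p = 0.194). LALBA, the regulatory subunit of lactose synthase, was at 151, 2501 and 1988 units in EL and 30875, 6565 and 2041 units in PL. PL 6 lay among the EL samples and EL 3 was the lowest, so that the log2 difference of 3.03 ± 1.52 had an adjusted p of 0.257.

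CSN2, the beta-casein gene, ranged from 33157 to 58718 units in EL and from 17661 to 98647 units in PL, and the PL range enclosed the EL range. CSN1S1, an alpha-S1 casein gene, was at 19178, 12867 and 10237 units in EL and 7573, 10909 and 5455 units in PL, with a log2 difference of -0.83 ± 0.32 (adjusted p = 0.141). PAEP, the beta-lactoglobulin gene, was the most abundant gene in all 6 samples. It held 14.0% ± 0.80 of units in EL and 12.2% ± 1.20 in PL (SD, n = 3), with p = 0.2 by the exact permutation test, two-sided. With 3 against 3 samples the exact permutation test cannot go below p = 0.1.

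**Figure D1:**
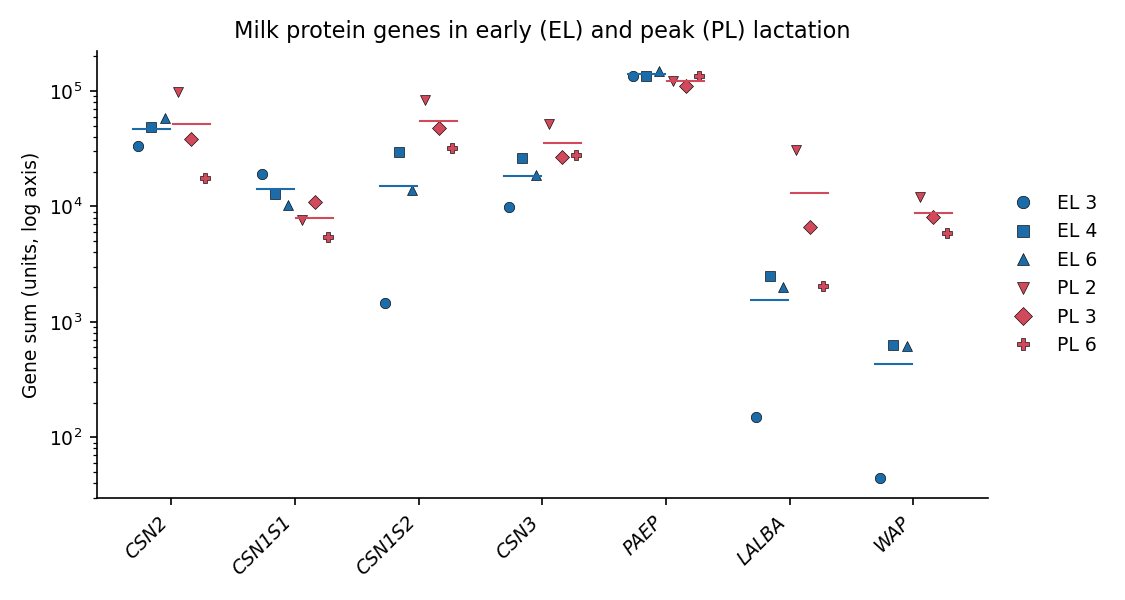
Gene sums of 7 milk protein genes in the 3 EL (blue) and 3 PL (red) samples, on a log axis in units, with a horizontal bar at the arithmetic mean of each stage. WAP had all PL samples (5910 to 12052) above all EL samples (44.5 to 633), whereas CSN2 and LALBA overlapped.

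Caseins, LALBA and WAP together held 6.40, 12.1 and 10.5% of units in EL and 28.5, 13.9 and 9.14% in PL. The means were 9.65% ± 2.93 and 17.2% ± 10.1 (SD, n = 3), with p = 0.3 in the exact permutation test. PL 2 alone was far above the EL range, and without it the difference fell from 7.55 to 1.88 percentage points. Transcripts of the mitochondrial genome held 9.16% ± 0.17 in EL and 8.94% ± 1.39 in PL (exact permutation p = 0.9).

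Acute-phase and antibacterial genes were the list with the most calls among the genes that rose in PL. Of 27 listed genes, 19 were measured, and 8 were called higher as deposited (against 0.422% of all gene sums) and 10 after scaling (0.717%), with none lower. Their median log2 difference was 3.47 as deposited and 3.86 after scaling, beside -0.25 and 0.01 for all gene sums. Without S100A8 and S100A9, which were listed at 0 in every EL sample, the medians were 3.21 and 3.55. Leaving out each sample in turn gave 5 to 12 calls as deposited and 7 to 12 after scaling, and 12 in both without PL 2. With PL and EL fitted alone, limma called 0 as deposited and 1 after scaling, with 0 and 1 at an adjusted p under 0.05. The list was written with earlier results of these samples known and is no independent evidence of its direction. The 19 genes summed to 5974, 9579 and 8904 units in EL 3, EL 4 and EL 6 and to 41878, 66270 and 65899 units in PL 2, PL 3 and PL 6, and SAA3 made up most of the PL sums.

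SAA3 encodes a serum amyloid A protein that mammary epithelium itself secretes, and lies on chromosome 2 from 41021349 to 41025950. It was at 1036, 2348 and 2444 units in EL 3, EL 4 and EL 6 and at 31130, 49876 and 48332 units in PL 2, PL 3 and PL 6. All PL samples were more than 10 times the highest EL sample. The log2 difference was 4.54 ± 0.35 (adjusted p = 7.62e-05) as deposited and 4.89 ± 0.38 after scaling. The call held without each sample, with the difference between 4.14 and 4.76. SAA3 took 0.195% ± 0.079 of units in EL and 4.32% ± 1.04 in PL (SD, n = 3; exact permutation p = 0.1). Mean SAA3 in MG, LG and W2 was 829, 1173 and 591 units. Serum amyloid A genes are near copies of one another, so reads could have been split among them.

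LBP, the carrier that presents bacterial lipopolysaccharide to CD14, was at 17.2, 90.6 and 40.2 units in EL and 246, 2271 and 2232 units in PL. The stages did not overlap, and PL 2 was well below the other PL samples. Its log2 difference was 4.74 ± 0.81 (adjusted p = 0.00491), between 4.14 (without EL 3) and 5.80 (without PL 2). CD14, the lipopolysaccharide co-receptor, was at 5.15, 3.80 and 3.45 units in EL and 9.23, 234 and 298 units in PL. PL 2 lay just above the EL samples, and the log2 difference was 4.26 ± 0.93 (adjusted p = 0.0157), rising to 5.85 without PL 2. As deposited, the CD14 call ended without EL 3 or EL 6 (adjusted p up to 0.0587), and after scaling it held without each sample.

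C3, the central complement component, was at 37.4, 27.9 and 43.6 units in EL and 75.2, 1382 and 1461 units in PL. All PL samples were above EL, with PL 2 nearest to it. The log2 difference was 3.88 ± 0.88 (adjusted p = 0.0187), and the deposited call ended without EL 3, EL 4, EL 6, PL 3 or PL 6, with values from 3.16 to 5.30 and an adjusted p up to 0.0664. After scaling (4.23 ± 0.79, adjusted p = 0.00746) it held without each sample. LRG1, a leucine-rich acute-phase glycoprotein outside the list, was at 3.07, 2.80 and 2.71 units in EL and 28.8, 150 and 244 units in PL. All PL samples were above EL, with a log2 difference of 4.93 ± 0.59 (adjusted p = 0.000843), between 4.31 without PL 6 and 5.84 without PL 2.

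The S100 calgranulins, calcium-binding proteins that neutrophils and epithelium make, were low at both stages. S100A9 was listed at 0 in all EL samples and at 1.93, 7.86 and 13.9 units in PL. S100A8 was likewise listed at 0 in EL and at 3.50, 2.69 and 12.7 units in PL. S100A12 was at 0, 0 and 0.618 units in EL and 3.66, 4.96 and 19.8 units in PL. All 3 were called higher in both scalings and without each sample, and S100A12 differed by 3.56 ± 0.66 (adjusted p = 0.00752), between 2.87 (without PL 6) and 4.01 (without PL 2). Of the 7 measured neutrophil markers these 3 were the ones called, against 0.422% of all gene sums as deposited and 0.717% after scaling. As deposited 4 of the 7 were higher in PL and 3 lower, and after scaling 6 and 1. The median log2 difference of the 7 was only 0.035 as deposited and 0.27 after scaling. The list summed to 21.7, 13.0 and 8.01 units in EL and 12.4, 34.1 and 69.3 units in PL. MMP9, ITGAM and CSF3R, which also mark neutrophils, were not called, and the part of neutrophil number in these values was not tested.

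LPO, the milk peroxidase lactoperoxidase, was at 0.295, 2.97 and 4.91 units in EL and 74.7, 13.1 and 11.1 units in PL. Here PL 2 was the highest sample, and the log2 difference was 3.21 ± 0.73 (adjusted p = 0.0198). The call ended without EL 3 (adjusted p = 0.0831), and the difference was 2.35 without PL 2. HP, haptoglobin, was named after its values were seen. It was at 658, 1252 and 743 units in EL and 2179, 4941 and 5848 units in PL, with no overlap, but its log2 difference of 2.23 ± 0.74 did not pass (adjusted p = 0.0919). LTF, the iron-binding lactoferrin and likewise named afterwards, overlapped between the stages, with a log2 difference of 0.80 ± 0.38.

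CHI3L1 and LCN2 passed the test only after scaling, and PL 2 resembled EL in both. CHI3L1, a chitinase-like glycoprotein, was at 55.3, 15.3 and 27.4 units in EL and 22.0, 2075 and 1466 units in PL. LCN2, a lipocalin that withholds iron from bacteria, was at 15.6, 12.9 and 14.1 units in EL and 9.43, 1122 and 1647 units in PL. Both calls ended without EL 3, EL 4, EL 6, PL 3 or PL 6. SOD2, the mitochondrial superoxide dismutase, also had PL 3 and PL 6 far above the rest, with 43.0, 30.6 and 38.7 units in EL and 30.3, 833 and 733 units in PL. GPX1, a glutathione peroxidase, was at 49.5, 15.4 and 44.2 units in EL and 33.7, 325 and 311 units in PL. SOD2 and GPX1 were also called only after scaling, as the 2 called higher among 21 measured antioxidant genes. Of these 21, 8 were higher in PL and 13 lower as deposited, and 13 and 8 after scaling. At an adjusted p under 0.05, limma gave 0 higher and 4 lower as deposited, and 2 higher and 4 lower after scaling. Of the 44 genes called higher only after scaling, PL 2 stood at or below the highest EL sample in 18 as deposited and in 4 after scaling.

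**Figure D2:**
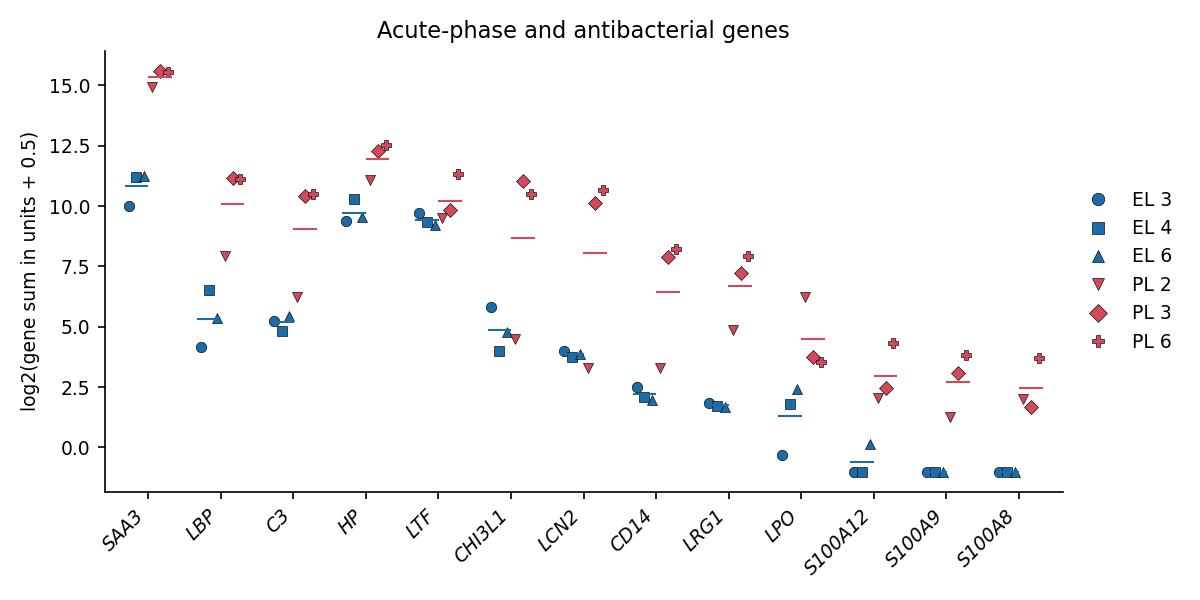
Gene sums of 13 acute-phase and antibacterial genes as log2(units + 0.5) in the 3 EL (blue) and 3 PL (red) samples, with a bar at the mean of the plotted values of each stage. SAA3 had all PL samples above all EL samples, while for C3, CD14, CHI3L1 and LCN2 the triangle of PL 2 lay near the EL samples and PL 3 and PL 6 lay far above.

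Carriers of vitamins and minerals were called in both directions. TCN1, the vitamin B12 carrier haptocorrin, was at 1.54, 13.7 and 3.94 units in EL and 127, 150 and 169 units in PL. The PL samples were close together and far above EL, with a log2 difference of 4.88 ± 0.63 (adjusted p = 0.00117), between 4.23 (without EL 3) and 5.62 (without EL 4). SPP1, the calcium-binding phosphoprotein osteopontin, was at 10.4, 8.49 and 5.28 units in EL and 98.9, 180 and 296 units in PL. No sample overlapped, with a log2 difference of 4.40 ± 0.49 (adjusted p = 0.000595), and the call held without each sample (4.02 to 4.81). FOLR1, the folate receptor and named after its values were seen, went from 57.7, 44.4 and 41.9 units to 135, 115 and 66.5 units. Its log2 difference of 1.08 ± 0.28 (adjusted p = 0.0368) was under the fold minimum. Of 15 measured calcium secretion genes SPP1 was the 1 called.

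TFRC, the transferrin receptor that imports iron, moved the other way, at 47.7, 22.9 and 14.2 units in EL and 0.759, 0 and 11.1 units in PL. PL 6 was close to the lowest EL sample. The log2 difference was -3.72 ± 0.89 (adjusted p = 0.0251), between -5.01 and -2.74, and the call ended without EL 3, EL 4, PL 2 or PL 3 (adjusted p up to 0.115). TCN1 and TFRC were the 2 calls among 14 measured vitamin and metal carriers.

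F3, tissue factor, which starts coagulation and is found on milk fat globules, was listed at 0 in EL 3 and EL 4, and was at 11.1 units in EL 6 and 56.4, 106 and 100 units in PL. The log2 difference was 5.89 ± 1.14 (adjusted p = 0.00854), between 5.14 (without EL 3) and 7.41 (without EL 6). CIDEA, a lipid droplet protein that takes part in milk fat secretion, was at 0.472, 0 and 0 units in EL and 38.4, 38.5 and 3.33 units in PL. PL 6 was the lowest PL sample, though above EL, and the log2 difference was 4.85 ± 0.70 (adjusted p = 0.00215), rising to 5.96 without PL 6. CIDEA was the 1 gene of 11 for the milk fat globule membrane called as deposited, and STX3 was added after scaling. ZG16B, a secreted lectin, was listed at 0 in EL and at 25.2, 1.72 and 121 units in PL. MT-2B, a metallothionein that binds zinc and copper, was at 11.6, 1.79 and 10.1 units in EL and 25.7, 588 and 1300 units in PL. Its call ended without EL 4 (adjusted p = 0.0560), and its log2 difference of 5.35 ± 1.18 became 7.04 without PL 2. LOC102157763, an uncharacterised locus on chromosome 8 from 70145049 to 70147973, was at 1.37, 0 and 0.667 units in EL and 23.2, 18.2 and 23.9 units in PL.

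SQLE and INSIG1, genes of sterol synthesis and sensing, passed the test after scaling but not as deposited, and the genes that make fatty acids gave no call as deposited. SQLE, an enzyme of cholesterol synthesis, was at 2.36, 2.30 and 3.64 units in EL and 11.8, 13.0 and 6.28 units in PL. It passed only after scaling (2.04 ± 0.34, adjusted p = 0.00416), and that call ended without EL 3, PL 2 or PL 3. INSIG1, a sterol sensor that holds SREBP in the endoplasmic reticulum, was at 14.5, 17.9 and 19.4 units in EL and 114, 73.7 and 30.6 units in PL. It too passed only after scaling (2.21 ± 0.45), with 1.60 and no call without PL 2. HMGCS1, named after its values were seen, was at 30.9, 48.4 and 44.7 units in EL and 399, 131 and 52.6 units in PL (adjusted p = 0.0557).

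Of 20 measured genes of fatty acid synthesis, none was called by limma as deposited, 1 was higher and 2 lower at an adjusted p under 0.05, and INSIG1 was the 1 called after scaling. ACSS2, which makes acetyl-CoA from acetate and was named after its values were seen, was at 140, 163 and 134 units in EL and 22.4, 61.0 and 64.3 units in PL, a log2 difference of -1.70 ± 0.33 (adjusted p = 0.00838). The 20 measured genes of fatty acid uptake and triglyceride assembly had no call either, with 2 higher and 1 lower at an adjusted p under 0.05 as deposited. Over all gene sums, 1.03% were higher and 6.26% lower at that adjusted p as deposited.

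Single genes of other lists were called too. CEBPD, a transcription factor that STAT3 induces, was at 24.7, 19.3 and 20.8 units in EL and 48.4, 209 and 262 units in PL. All PL samples were above EL, with a log2 difference of 2.66 ± 0.57 (adjusted p = 0.0149), and 3.42 without PL 2. The deposited call ended without EL 6 (adjusted p = 0.0546). IGFBP5, which binds insulin-like growth factors, was at 25.1, 15.2 and 19.6 units in EL and 30.7, 286 and 139 units in PL. Its deposited difference of 2.42 ± 0.63 (adjusted p = 0.0345) lost its call without EL 3, EL 4, EL 6, PL 3 or PL 6 (adjusted p up to 0.0958), and its scaled difference of 2.77 ± 0.53 held without each sample. These were the 2 calls among 15 measured genes of LIF, STAT3 and involution signalling, against 0.422% of all gene sums as deposited and 0.717% after scaling. As deposited 9 of the 15 were higher in PL and 6 lower, and after scaling 11 and 4. Their median log2 difference was 0.12 as deposited and 0.44 after scaling. With PL and EL fitted alone, limma called 0 of them in either scaling. BHLHE40, a repressor in the circadian clock, was at 12.0, 12.3 and 14.3 units in EL and 29.7, 96.8 and 105 units in PL, with a log2 difference of 2.35 ± 0.39 (adjusted p = 0.00405) that held without each sample (2.02 to 2.93).

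A few further risers were named after their values were seen. NUPR1, a small stress-response protein, was at 155, 307 and 221 units in EL and 690, 2291 and 1491 units in PL (2.60 ± 0.44, adjusted p = 0.00475). CTGF, a matricellular protein that responds to YAP, was at 5.25, 14.5 and 2.80 units in EL and 70.1, 117 and 77.7 units in PL (3.72 ± 0.75, adjusted p = 0.0105). The CTGF call ended without EL 6 as deposited (adjusted p = 0.0521). FOS, an immediate early transcription factor, was at 2.21, 1.78 and 0.986 units in EL and 6.85, 16.3 and 25.4 units in PL (2.81 ± 0.53, adjusted p = 0.00821). For all 3 genes every PL sample was above every EL sample.

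Among chemokines, 2 of 21 measured genes were called higher as deposited (against 0.422% of all gene sums) and 3 after scaling (0.717%). The list had no common direction. As deposited 9 were higher in PL and 11 lower, with a median log2 difference of -0.09. After scaling 11 were higher and 10 lower, with a median of 0.06. CXCL2, which attracts neutrophils, was at 0, 0.641 and 1.08 units in EL and 8.17, 8.62 and 9.00 units in PL, and its deposited call (3.23 ± 0.68, adjusted p = 0.0137) ended without EL 3 (adjusted p = 0.0699). CCL26, an eosinophil chemokine, was at 1.71, 0.456 and 1.24 units in EL and 4.37, 19.0 and 12.5 units in PL (2.80 ± 0.54, adjusted p = 0.00838). BST2, an interferon-induced membrane protein that tethers viruses, was lower in PL, at 46.0, 29.2 and 39.8 units in EL and 2.13, 8.69 and 2.99 units in PL. Its stages did not overlap. The log2 difference was -3.12 ± 0.72 (adjusted p = 0.0204), and the deposited call ended without EL 3, EL 6, PL 2 or PL 6 (adjusted p up to 0.0846). BST2 was the 1 call among 22 measured interferon-stimulated genes, and most of the list went the other way. As deposited 18 of the 22 were higher in PL and 4 lower, and after scaling 19 were higher and 3 lower. The median log2 difference was 0.38 as deposited and 0.72 after scaling. At an adjusted p under 0.05, none was higher and 1 lower as deposited, and 2 were higher and 1 lower after scaling.

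Genes of the myoepithelium gave 1 call and a wider set of smaller differences. ACTG2, a smooth muscle actin of the contractile myoepithelial cell, was at 107, 171 and 144 units in EL and 424, 1304 and 848 units in PL. No samples overlapped, and the log2 difference was 2.49 ± 0.36 (adjusted p = 0.00215), held without each sample between 2.11 and 2.92. Its mean was 143, 138 and 120 units in MG, LG and W2. Of 10 measured genes of this list, 2 were higher at an adjusted p under 0.05 as deposited and 7 after scaling. Over all gene sums the shares were 1.03% and 4.01%. CNN1, calponin and named after its values were seen, was at 113, 90.2 and 108 units in EL and 124, 357 and 276 units in PL (1.15 ± 0.29, adjusted p = 0.0327). ACTA2, also named afterwards, was at 921, 776 and 905 units in EL and 672, 1370 and 1549 units in PL, so that PL 2 lay below EL as deposited. The list summed to 1403 to 1611 units in EL, and to 1633 units in PL 2, 4558 in PL 3 and 3900 in PL 6.

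Genes of cell division were the list with the most calls among those that fell. All 36 listed genes were measured, and 8 were called lower as deposited (against 0.67% of all gene sums) and 6 after scaling (0.496%), with none higher. At an adjusted p under 0.05 and any fold, 24 were lower under either scaling, beside 6.26% and 4.16% of all gene sums, and none was higher. The median log2 difference was -1.58 as deposited and -1.33 after scaling. In 28 of the 36 every PL sample lay below every EL sample as deposited, and in 26 after scaling (19.7% and 10.7% of all gene sums). Leaving out each sample in turn gave 5 to 10 calls as deposited and 3 to 7 after scaling. With PL and EL fitted alone, 1 gene was lower at an adjusted p under 0.05 under either scaling, and with the replicate number as a block 13 as deposited and 12 after scaling. The list summed to 473, 376 and 390 units in EL and 126, 155 and 143 units in PL. PL 2 did not stand apart from PL 3 and PL 6 in this sum.

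TOP2A, the topoisomerase that untangles replicated chromosomes, was at 13.7, 14.8 and 10.3 units in EL and 2.98, 2.42 and 1.18 units in PL. The stages did not overlap, and the log2 difference was -2.37 ± 0.29 (adjusted p = 0.00103), between -2.59 and -2.06 without each sample. After scaling it was -2.09 ± 0.34, and that call ended without EL 4 or PL 6. Mean TOP2A was 23.1, 15.1 and 22.1 units in MG, LG and W2, beside 13.0 and 2.19 units in EL and PL. CCNB1, the cyclin of mitotic entry, was at 14.1, 12.7 and 12.1 units in EL and 3.52, 2.73 and 1.04 units in PL. Its log2 difference was -2.31 ± 0.32 (adjusted p = 0.00173), and without PL 6 it was -1.90 and under the fold minimum. CDK1, the kinase partner of that cyclin, was at 2.55, 2.84 and 2.23 units in EL and 0, 0.604 and 0 units in PL, a difference of -2.22 ± 0.31 (adjusted p = 0.00190) that held without each sample in both scalings.

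UHRF1, which copies DNA methylation at replication forks, was at 7.61, 6.68 and 9.06 units in EL and 1.84, 1.29 and 0.749 units in PL (-2.25 ± 0.31, adjusted p = 0.00153). It was called as deposited and was just under the fold minimum after scaling (-1.99). TPX2, a spindle assembly factor, was at 12.9, 11.5 and 9.30 units in EL and 3.00, 2.22 and 1.25 units in PL (-2.19 ± 0.26, adjusted p = 0.000865). KIF11, the kinesin that separates spindle poles, was at 6.52, 6.65 and 6.22 units in EL and 1.49, 1.37 and 0.687 units in PL (-2.09 ± 0.26, adjusted p = 0.00103). Both calls held only as deposited and ended without PL 6, with values of -1.91 and -1.85. In these 3 genes PL 6 was the lowest sample.

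CCNA2, a cyclin of S phase and G2, was at 6.31, 5.55 and 6.12 units in EL and 0, 0.980 and 2.06 units in PL, and its call (-2.39 ± 0.49) ended without PL 2, where the difference was -1.74. NUSAP1, a spindle protein, was at 9.66, 11.0 and 11.7 units in EL and 0, 3.49 and 2.76 units in PL, and its call (-2.59 ± 0.61, adjusted p = 0.0225) ended without EL 3, EL 4, EL 6 or PL 2, the last at -1.64. BUB1, a spindle checkpoint kinase, was at 4.07, 4.09 and 3.48 units in EL and listed at 0 throughout PL, and passed only after scaling (adjusted p = 0.0401), a call that ended without any 1 of the 6 samples. PCNA, the replication clamp and named after its values were seen, was at 68.0, 56.8 and 67.7 units in EL and 27.0, 24.5 and 25.7 units in PL. It had an adjusted p of 0.00510 at a log2 difference of -1.30 ± 0.22. MKI67, a proliferation marker named afterwards, was at 1.76, 4.04 and 1.07 units in EL and 1.20, 0.744 and 0.240 units in PL and overlapped (adjusted p = 0.174). MYBL2, a cell cycle transcription factor outside the list and also named afterwards, was at 7.55, 6.17 and 8.65 units in EL and 0, 0.391 and 0 units in PL (-3.70 ± 0.30, adjusted p = 7.62e-05).

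**Figure D3:**
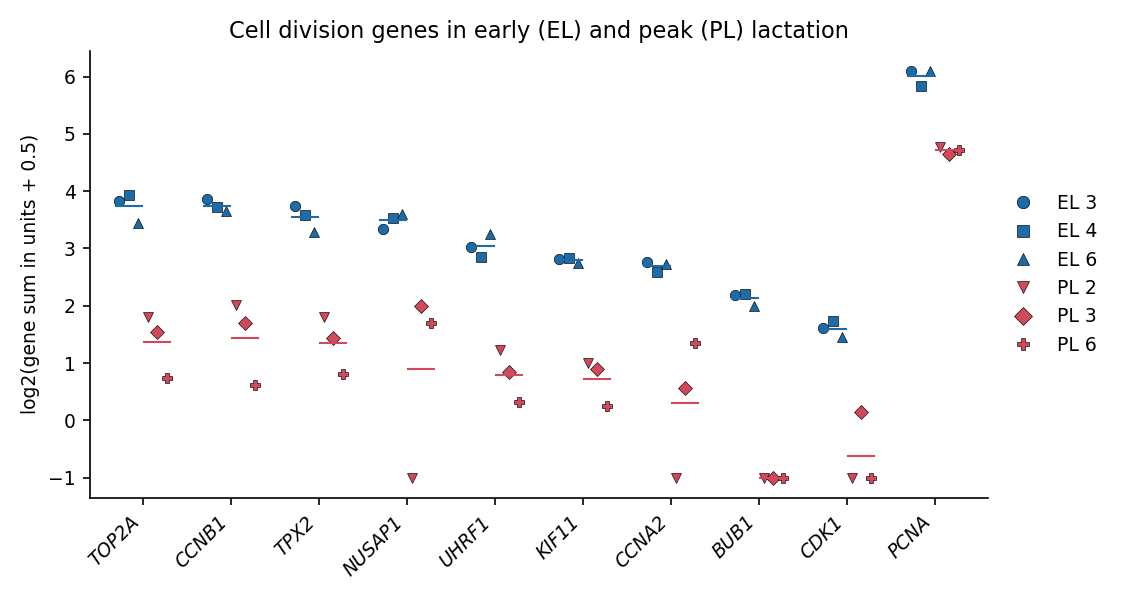
Gene sums of 10 cell division genes as log2(units + 0.5) in the 3 EL (blue) and 3 PL (red) samples, with a bar at the mean of the plotted values of each stage and -1 standing for a value of 0. Every PL sample lay below every EL sample in each of the 10 genes, with PCNA the most abundant.

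Ribosomal proteins shifted together by less than the fold minimum. All 81 listed genes were measured and none was called by limma, but 59 were lower at an adjusted p under 0.05 under either scaling (6.26% and 4.16% of all gene sums), and none was higher. The median log2 difference was -0.99 as deposited and -0.65 after scaling, beside -0.25 and 0.01 for all gene sums. Leaving out each sample in turn gave 28 to 64 such genes as deposited and 49 to 61 after scaling. With PL and EL fitted alone, limma gave 0 such genes as deposited and 1 after scaling, and with the replicate number as a block 9 and 24. In 68 of the 81 genes every PL sample lay below every EL sample as deposited, and in 65 after scaling (19.7% and 10.7% of all gene sums). Ribosomal protein transcripts held 19.4, 14.8 and 16.4% of units in EL and 5.81, 9.50 and 11.4% in PL. The stages did not overlap, at 16.8% ± 2.37 and 8.92% ± 2.86 (SD, n = 3; exact permutation p = 0.1).

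RPLP1, a stalk protein of the large subunit, was at 8530, 6068 and 6608 units in EL and 2464, 4033 and 5700 units in PL (-0.86 ± 0.24, adjusted p = 0.0444). RPS20, of the small subunit, was at 5241, 4417 and 4610 units in EL and 1351, 2344 and 2908 units in PL (-1.18 ± 0.21, adjusted p = 0.00673), and its scaled difference was -0.83 ± 0.12. RPS29, named after its values were seen, was at 1850, 1442 and 1555 units in EL and 338, 530 and 594 units in PL (-1.76 ± 0.23, adjusted p = 0.00114). PL 2 was the lowest sample in all 3 genes, and PL 3 and PL 6 were also below every EL sample.

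Of 25 measured translation factors and poly(A)-binding proteins, 8 were lower at an adjusted p under 0.05 as deposited and 7 after scaling. Over all gene sums the shares were 6.26% and 4.16%. EEF2, the translocation factor of elongation and named after its values were seen, was at 2115, 1482 and 1729 units in EL and 515, 1026 and 1231 units in PL (-1.02 ± 0.26, adjusted p = 0.0305). PABPC1, the main cytoplasmic poly(A)-binding protein, was the 1 called gene of the list. It was at 1256, 928 and 381 units in EL and listed at 0 in all PL samples, while its mean was 940, 1175 and 524 units in MG, LG and W2. A value of 0 for a gene that most cells use can be a failed estimate, so no fold is given.

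Nuclear genes of the respiratory chain gave no call among 66 measured. With limma, 34 were lower at an adjusted p under 0.05 as deposited and 6 after scaling, beside 6.26% and 4.16% of all gene sums. The count thus depended on the scale, and 26 were lower after scaling without PL 2. Their median log2 difference was -0.55 as deposited and -0.21 after scaling. The 34 transcripts of the mitochondrial genome had no call by limma, with none at an adjusted p under 0.05 as deposited and 3 higher after scaling. Genes of protein folding and secretion in the endoplasmic reticulum had no call among 37, with 4 higher at an adjusted p under 0.05 as deposited and 8 after scaling. Over all gene sums, 1.03% were higher at that adjusted p as deposited and 4.01% after scaling. HSPA5, the chaperone BiP and named after its values were seen, was at 183, 214 and 241 units in EL and 381, 336 and 392 units in PL (0.80 ± 0.19, adjusted p = 0.0258). Its PL samples were close together and above EL.

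**Figure D4:**
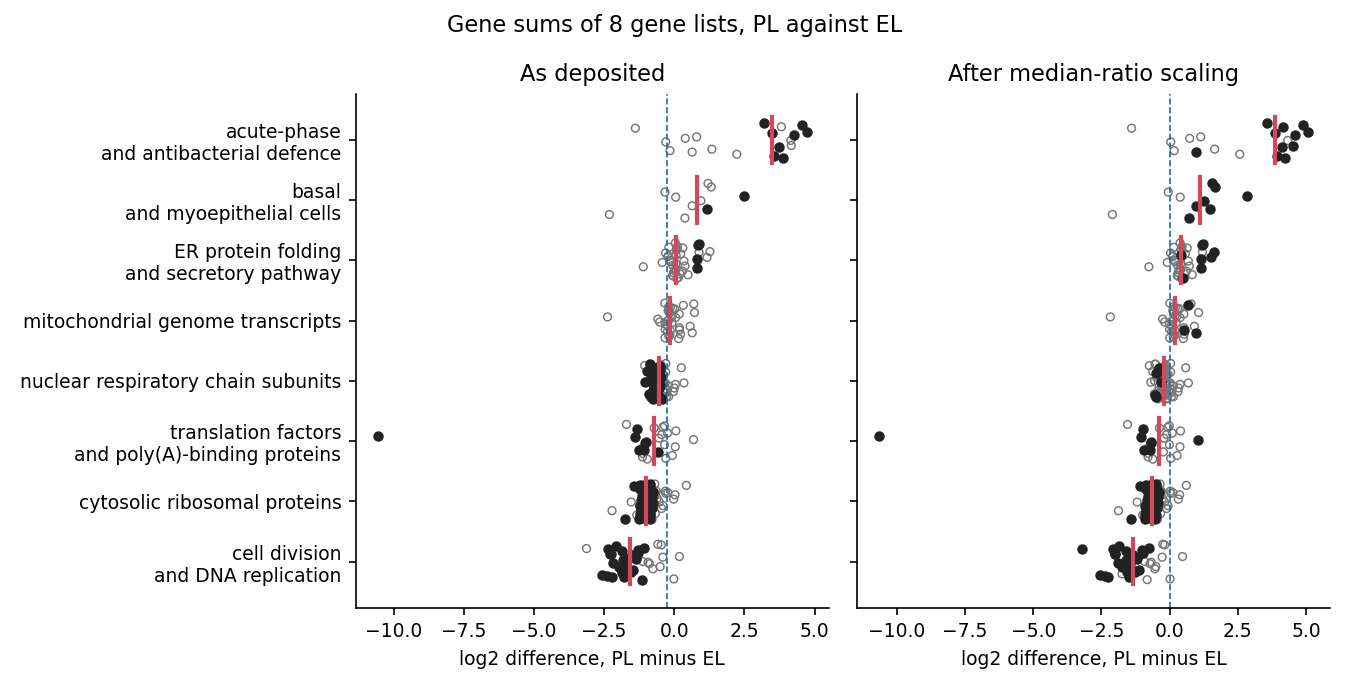
Log2 difference, PL minus EL, of the gene sums of 8 gene lists, as deposited (left) and after scaling (right). Filled points have an adjusted p under 0.05, red bars mark list medians and the dashed line the median of all gene sums (-0.25 and 0.01); the defence list lay to the right of it with medians of 3.47 and 3.86, and cell division to the left with -1.58 and -1.33.

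**Figure D5:**
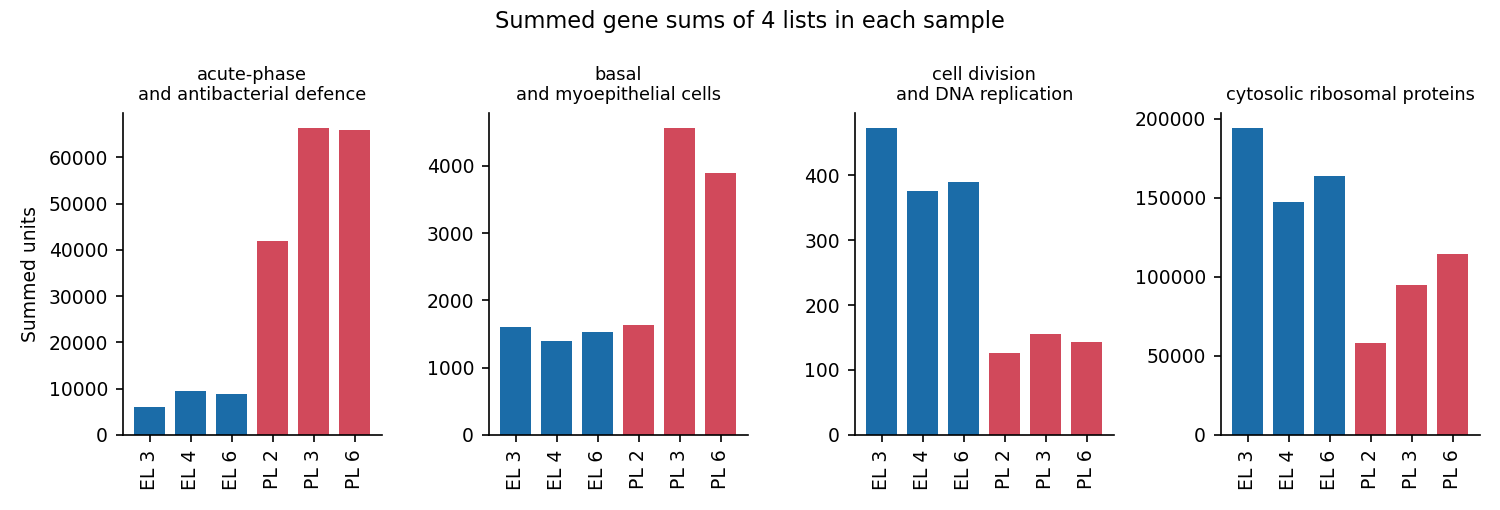
Summed gene sums of 4 lists in each EL (blue) and PL (red) sample, as bars from 0 in units as deposited. The defence sum was highest in PL 3 (66270), the myoepithelial sum of PL 2 (1633) was near the EL samples, and the cell division and ribosomal sums were lower in all 3 PL samples.

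The largest other falls included genes listed at 0 throughout PL. TRAF2, an adaptor of tumour necrosis factor receptors, was at 15.1, 19.3 and 13.9 units in EL and listed at 0 in all PL samples. UNG, the uracil DNA glycosylase, was at 24.8, 6.30 and 12.1 units in EL and SAP130, a corepressor subunit, at 7.11, 8.54 and 10.5 units, and both were listed at 0 in PL. Of 6593 gene sums that reached 10 units in any of the 6 samples, 14 were listed at 0 in all PL samples, 11 in all EL samples and 100 in PL 2 alone. LOC100513767, an uncharacterised locus on chromosome 17 from 47755665 to 47759724, was at 4746, 2244 and 3321 units in EL and 336, 73.2 and 63.3 units in PL. Its log2 difference was -4.82 ± 0.51 (adjusted p = 0.000404), between -5.58 without PL 2 and -4.38 without PL 6, and its mean was 2963, 3385 and 2659 units in MG, LG and W2.

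ZNF32, a zinc finger gene, was at 17.0, 15.2 and 12.9 units in EL and 0, 1.30 and 0 units in PL, and TMTC2, a mannosyltransferase of the endoplasmic reticulum, at 18.7, 8.51 and 9.00 units in EL and 0.595, 0 and 0 units in PL. Their log2 differences were -4.33 ± 0.42 and -4.18 ± 0.39, and both calls held without each sample. PRDX3, a mitochondrial peroxiredoxin that removes peroxide, was at 430, 317 and 354 units in EL and 80.5, 80.9 and 84.8 units in PL. The PL samples were close together as deposited, with a log2 difference of -2.14 ± 0.17 (adjusted p = 7.62e-05). After scaling the difference was -1.80 ± 0.18 (adjusted p = 0.000258), under the fold minimum. RSPO1, an R-spondin that amplifies WNT signals, was named after its values were seen, at 61.4, 23.6 and 33.4 units in EL and 1.69, 4.22 and 4.66 units in PL (-3.30 ± 0.35, adjusted p = 0.000405). RBM3, a cold-inducible RNA-binding protein also named afterwards, was at 180, 147 and 196 units in EL and 7.31, 52.3 and 16.3 units in PL (-3.18 ± 0.56, adjusted p = 0.00576), and the difference was -2.54 without PL 2 and -3.92 without PL 3.

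Other cell types were checked through their markers. The 13 measured luminal genes had no call by limma as deposited, with none at an adjusted p under 0.05 in that scaling, and ELF3 was called after scaling. They summed to 1498, 1641 and 1525 units in EL and 925, 2036 and 1975 units in PL. LEP, the adipocyte hormone leptin that mammary epithelium can also make, was at 0, 0.608 and 0 units in EL and 1.56, 15.9 and 14.6 units in PL (3.61 ± 0.66, adjusted p = 0.00693), and 4.59 without PL 2. The 9 measured adipocyte genes summed to 1015, 1442 and 1323 units in EL and 903, 649 and 400 units in PL. After scaling, the sum of PL 2 (1593 units) lay within the EL range (980 to 1710 units). Of the 9 genes, 5 were higher and 4 lower in PL as deposited. Their median log2 difference was 0.26 as deposited and 0.59 after scaling. At an adjusted p under 0.05, 1 of them was lower as deposited and none after scaling. FABP4, the adipocyte fatty acid carrier and named after its values were seen, was at 655, 709 and 690 units in EL and 331, 370 and 234 units in PL (-1.16 ± 0.20 as deposited, adjusted p = 0.00520).

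CD14 was the 1 call among 11 macrophage genes, of which 9 were lower in PL as deposited and 8 after scaling. The median log2 difference of the 11 was -0.44 as deposited and -0.10 after scaling. Under either scaling, 1 of them was lower at an adjusted p under 0.05. None of 20 fibroblast and collagen, 11 endothelial, 14 lymphocyte, 5 red blood cell or 7 keratinocyte genes was called by limma in either scaling. At an adjusted p under 0.05 as deposited, 2 fibroblast genes and 1 endothelial gene were lower. No gene was called in either scaling for glucose uptake and lactose synthesis (16 measured), water and ion transport (17), tight junctions (13), prolactin receptor and STAT5 (11), antibody transfer and plasma cells (13), MHC molecules (23), matrix proteases (20), autophagy and lysosome (25) or the BCL2 family (13). At an adjusted p under 0.05 as deposited, limma gave 0 of these for glucose and lactose, prolactin and STAT5, antibody transfer, MHC, matrix proteases and BCL2, 1 higher and 1 lower for water and ion transport and for autophagy, and 1 lower for tight junctions. After scaling none was lower, 5 were higher for autophagy, 3 for glucose and lactose, 2 each for water and ion transport, tight junctions, prolactin and STAT5, MHC and matrix proteases, and 1 each for antibody transfer and BCL2. Over all gene sums, 1.03% were higher and 6.26% lower at that adjusted p as deposited, and 4.01% and 4.16% after scaling. SLC7A4, at 0.521, 0.859 and 0.555 units in EL and 1.30, 29.5 and 18.7 units in PL, was the 1 call among 23 amino acid transporters, and its deposited call ended without EL 3, EL 6, PL 3 or PL 6.

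Single transcripts and gene sums did not always move together. Of 158 called reference transcripts, 54 belonged to genes with 1 transcript in the table and 104 to genes with several. For 69 of those 104 the gene sum was not called, and for 6 the gene sum differed in the other direction. NUF2, a kinetochore protein, showed both directions in 1 gene. Its transcript XM_005655379.3 was at 9.03, 9.99 and 6.23 units in EL and listed at 0 in PL, while XM_005655380.3 was at 0, 0 and 0.699 units in EL and 2.18, 2.45 and 3.22 units in PL. The NUF2 sum was -1.55 ± 0.26 (adjusted p = 0.00434) on the log2 scale. RPS10, a ribosomal protein gene, had transcript NM_001244106.1 at 358, 323 and 548 units in EL and 31.0, 42.3 and 140 units in PL, whereas its sum differed by -0.40 ± 0.25 (adjusted p = 0.367). STARD10, a lipid transfer protein, had transcript NM_001243805.1 at 5.43, 8.20 and 4.96 units in EL and at 0 in PL, beside a sum of 34.0, 23.8 and 38.2 units in EL and 33.8, 94.7 and 111 units in PL. These 3 genes were chosen after their values were seen.

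Transcripts that the authors assembled themselves, which carry no gene name or position in the table, held 16.9% ± 2.28 of units in EL and 19.0% ± 2.48 in PL (SD, n = 3; exact permutation p = 0.4). Of these, 2 transcripts of the locus MSTRG.2267 gave the largest rises. MSTRG.2267.1 was at 4.48, 53.9 and 20.9 units in EL and 1061, 2265 and 4538 units in PL, with a log2 difference of 6.95 ± 0.83 (adjusted p = 0.00222). MSTRG.2267.6 was at 5.18, 1.73 and 11.7 units in EL and 66.2, 1557 and 3592 units in PL. The 6 transcripts of this locus summed to 51.0, 76.5 and 145 units in EL and 2896, 7702 and 12694 units in PL. MSTRG.4398.1 was at 0, 0.0119 and 0.00528 units in EL and 8.97, 125 and 50.3 units in PL. MSTRG.8587.2 went the other way, at 42.2, 24.7 and 31.6 units in EL and listed at 0 in PL.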

How the data were processed

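The table held 1 value for each of 61773 transcripts in 30 samples of pig mammary gland. RNA was extracted with Trizol per the labels and with RNAiso Plus per the study's methods. The authors prepared TruSeq libraries, trimmed reads with Trimmomatic, aligned them with HISAT2 to Sscrofa11.1 and used StringTie to build and quantify transcripts. Those reaching 0.5 FPKM in any stage were kept. The authors deposited values named FPKM, but each sample adds up to nearly the same total (998136 to 998888 units in these 6), so they were treated as TPM and called units. Whether they include the authors' RUVs correction, and whether counting used strand, is not given in the sources used here. The study states that raw counts are public in another repository. They were not used here, so reads per transcript do not enter these results.

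Gene sums added the 32690 transcripts matched to RefSeq symbols of Sscrofa11.1 (14915 genes), leaving 29047 assembled transcripts and 36 unmatched identifiers. Values were analysed as log2(value + 0.5), which understates changes of low genes, with limma 3.58.1 in R 4.3.3 (trended variance, 15 counted samples of 5 stages in 1 fit, contrast PL minus EL, Benjamini-Hochberg adjustment over all transcripts or all gene sums). Calls needed an adjusted p under 0.05 and an absolute log2 difference of at least 2. Scaling divided each sample by the median of its ratios over 2698 transcripts with at least 10 units in every counted sample. Shares were compared by exact permutation tests, two-sided, with Python 3.11.15. P-values of limma rest on a spread shared by the 15 counted samples of 5 stages, and not on that of the PL and EL samples alone. Those of the permutation tests rest on the PL and EL samples. Near-identical samples were those with a median pairwise difference under 5% where the stage averaged 10 units or more.

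The genes named were the 12 gene sums with the largest rise and fall called in both scalings without overlap, every called gene of 40 lists or else up to 4 abundant members, the 10 most abundant transcripts and 3 assembled transcripts each way, with others marked in the text. The members and lists were chosen with earlier results of these data known. The fit was also run on simulated data with independent normal noise and planted shifts. That simulation held neither nearly fixed totals nor a spread that differed between stages, so it does not test the calls made here. Alternatives were other pseudocounts, a filter, quantile normalization, the replicate block, other sets of samples and each sample left out. Some genes are not reported here.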

Additional observations from a re-analysis of the deposited data

How the results depend on the processing

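The number of calls depended on how many samples fed the fit. As deposited, 86 transcripts were called higher and 166 lower, against 2 and 7 with PL and EL alone, 1195 and 1880 with all 6 samples per stage, and 452 and 874 with the near-identical samples as 1 further sample. After scaling, 159 and 153 became 9 and 8, 1835 and 1742, and 770 and 795. For gene sums, 63 and 100 as deposited became 1 and 10, 142 and 176, and 112 and 163, and 107 and 74 after scaling became 4 and 11, 207 and 136, and 167 and 132. All 6 samples include the near-identical ones, so their larger counts rest on a spread that those samples lower. Quantile normalization gave 159 transcripts and 105 gene sums higher. A pseudocount of 0.1 gave 266 and 238 transcripts lower (deposited and scaled) and 215 and 162 gene sums lower, and a pseudocount of 1 gave 100 transcripts lower after scaling and 66 gene sums lower as deposited. The adjusted p alone, chosen after seeing the data, gave 331 transcripts lower as deposited, 245 higher and 289 lower after scaling, and 154 higher and 933 lower gene sums as deposited and 598 and 621 after scaling. Leaving out each sample in turn gave 47 to 391 transcripts higher and 128 to 316 lower as deposited, 100 to 549 and 130 to 318 after scaling, and for gene sums 51 to 174 and 66 to 207 as deposited and 87 to 210 and 58 to 141 after scaling.

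The study reports a different sow for each sample, so the replicate number does not pair samples of the same animal. Deviations from the stage mean correlated at 0.0356 between EL 3 and PL 3 and at -0.0236 between EL 6 and PL 6. With the replicate number as a block, 23 transcripts were higher and 39 lower as deposited and 46 and 42 after scaling. In that fit 56 gene sums were lower as deposited and 47 after scaling.

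The milk protein share differed by 7.53 percentage points with all 6 samples per stage, and by 1.88 to 11.6 without each sample. With all 6 the exact permutation p was 0.013, against 0.3 with the counted samples. The test with all 6 treats the near-identical samples as independent, so its p-value is no evidence of a difference between the stages. The mitochondrial share differed by -0.793 to 0.552 percentage points, the latter, a changed sign, without PL 2. Small differences that passed no test also changed sign. In log2 units, CSN2 ranged from -0.81 to 0.43 as deposited without each sample (0.02 without EL 6), EPCAM from -0.171 to 0.0497, with 0.40 after quantile normalization and 0.0615 with the block, and PAEP and RPS10 were 0.00 and 0.25 after quantile normalization. After scaling, CSN2 ranged from -0.65 to 0.87 (-0.12 without EL 3), with -0.51 after quantile normalization and -0.49 with the block, PAEP from -0.0405 to 0.318, with 0.00 and -0.0452, and RPS10 from -0.182 to 0.0137 (0.0047 without PL 2), with 0.25 after quantile normalization. The cause was not tested. Counting each single gene or transcript once per scaling and setting, 2171 values kept the direction and side of the threshold of the main value, 309 lost and 51 gained a call. Reads per transcript were not used here, so no counting error stands beside a value.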

Other observations

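Some of the most abundant assembled transcripts were present in some samples and nearly absent in others of the same stage. MSTRG.10840.2 was at 0.842, 33642 and 0.788 units in EL 3, EL 4 and EL 6 and at 29106, 12066 and 0.601 units in PL 2, PL 3 and PL 6, so that both stages held samples near 0 and samples among the highest values of the table. MSTRG.10844.3 was at 1278, 9430 and 7057 units in EL and 31150, 13023 and 8144 units in PL. The 41 assembled transcripts of the locus MSTRG.6736 summed to 484, 5386 and 2913 units in EL and 12694, 3338 and 2523 units in PL, while its transcript MSTRG.6736.4 was at 31.2, 870 and 132 units in EL and 0, 0 and 0.0133 units in PL. MGP, a matrix protein that inhibits calcification and was among the most abundant genes, was at 6859, 11967 and 9016 units in EL and 6120, 22247 and 32540 units in PL and did not pass the test, with PL 2 below every EL sample.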
